A study of Mus musculus with 9 samples.

Results

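Hox genes encode homeodomain transcription factors and lie in 4 clusters, Hoxa on chromosome 6, Hoxb on chromosome 11, Hoxc on chromosome 15 and Hoxd on chromosome 2 of the mouse. Every gene of the deposited RNA-seq table whose symbol was Hox, a cluster letter from a to d and a number was taken, which gave 39 of 26214 genes: 11 Hoxa, 10 Hoxb, 9 Hoxc and 9 Hoxd genes. The number after the letter is the paralog number, and genes of different clusters that carry the same number are called paralogs.

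Along each cluster the genes are switched on in the embryo in the order in which they lie, low paralog numbers towards the head and high numbers towards the tail and the tips of the limbs. Fibroblasts and fat progenitors of adult animals retain Hox patterns that differ from one body site to another. Hox proteins bind DNA together with TALE cofactors, which are the Pbx, Meis and Pknox homeodomain proteins, while Polycomb and Trithorax group complexes keep stretches of each cluster silent or active.

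The study compared stromal progenitors of fat and muscle early after muscle damage. All animals were labelled C57Bl/6, given by the study's methods as C57Bl/6J males of 8 to 12 weeks, and all cells were taken on day 1 after an injection into the quadriceps. Adipose stromal cells (ASCs, 3 libraries) came from the subcutaneous adipose tissue of animals that received NaCl. Fibroadipogenic progenitors (FAPs, 2 libraries) came from the quadriceps of NaCl animals, and injured FAPs (3 libraries) from quadriceps damaged by glycerol. A library of CD31+CD45+ cells of glycerol-injected quadriceps, which are endothelial cells and leukocytes, had no replicate and entered no comparison. The methods describe magnetic removal of CD31+ and CD45+ cells and selection for Sca-1. Before that, fat was digested with collagenase and DNase, and muscle with another collagenase and dispase plus mechanical dissociation. Tissue and dissociation therefore cannot be told apart between ASCs and either group of FAPs. The study's reporting summary gives triplicates from pooled cells of 3 animals for each cell type, and does not make clear whether the replicates of a type came from the same pool. The table holds 2 FAP libraries, not 3. In such bulk samples fewer cells of a type and less RNA per cell cannot be told apart.

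The values are normalized read counts, that is, reads of a gene divided by a size factor of the library. Libraries of ASCs, FAPs and injured FAPs held between 24052508 and 27481573 reads on genes, and a single read corresponded to a value between 0.763 and 1.32. Values were compared between groups as log2(value + 1) with limma in 1 fit of the 8 libraries, and 13601 genes whose mean reached 10 were tested. A gene was called higher or lower when its Benjamini-Hochberg adjusted p was under 0.05 and its log2 fold change was beyond 0.58. Whether libraries of different groups overlapped is described gene by gene. The share of all tested genes without such overlap was not worked out. Where levels of different genes are set side by side they are given per kb, which means the value divided by the exon length of the gene.

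The marker genes of the sorted cells were checked first. Pdgfra, the receptor that marks both progenitors, was at 10837, 15083 and 13043 in ASCs, 17754 and 17756 in FAPs and 23649, 25268 and 23236 in injured FAPs. Ly6a, the gene of the selection marker Sca-1, was at 46513, 49855 and 36777 in ASCs, 16542 and 10823 in FAPs and 24309, 21308 and 24855 in injured FAPs, and all 10 stromal markers were above 0 in every library. Of these, Cd34, Dcn, Col1a1, Col3a1, Lum and Pi16 ran opposite to Pdgfra, with every ASC library above the FAP libraries and every injured FAP library below them. The sum of 4 tendon cell markers was 2351, 1803 and 1543 in ASCs, 124322 and 149832 in FAPs and 43294, 44522 and 35403 in injured FAPs, with Fmod as the most abundant of them in all 8 libraries. The sum of 7 pericyte and smooth muscle markers was 5325, 3436 and 4183 in ASCs, 23517 and 20581 in FAPs and 10165, 9776 and 10337 in injured FAPs, led by Abcc9 in ASCs and by Rgs5, Acta2 or Cspg4 in the muscle libraries. The sums of both lists were higher in every FAP library than in every injured FAP library, and lowest in ASCs. Single members did not all follow the sum: Cspg4 overlapped between FAPs and injured FAPs, and Abcc9 and Kcnj8 were higher in every ASC library than in every injured FAP library. Their part in the Hox differences between the groups was not tested.

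Some libraries stood apart within their group. The sum of 6 epithelial markers was 1067, 1.13 and 314 in ASCs, 1.90 and 1.88 in FAPs and 8.63, 7.75 and 5.34 in injured FAPs, with Krt8 the most abundant in ASC replicates 1 and 3, and Krt5 and Krt14 at 0 in ASC replicates 1 and 2. ASC replicate 1 also had the lowest ASC values of several Hox genes: Hoxb2 was at 52.7, 169.9 and 118 and Hoxa3 at 38.2, 99.7 and 91.6 in the 3 ASC libraries. Hoxb9 went the other way there, at 68.5, 17.0 and 25.1. Counts of Hox genes are therefore given with and without this library. The sum of 10 leukocyte markers was 478, 395 and 375 in ASCs, 259.6 and 485 in FAPs and 673, 3064 and 556 in injured FAPs, so injured FAP replicate 2 was above all others, with Lyz2 its most abundant marker. In both FAP libraries 8 of the 10 leukocyte markers were at 0, Ptprc and Lyz2 among them. The role of these cells in any Hox value was not tested.

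Of the 39 Hox genes, 28 reached the mean of 10 and were tested. At 0 in all 9 libraries were 5 genes: Hoxa13, Hoxb1, Hoxb13, Hoxc12 and Hoxd12. The remaining 6 untested genes, Hoxa11, Hoxb8, Hoxc13, Hoxd1, Hoxd10 and Hoxd11, had low values that are given below. A value of 0 in a library leaves room for up to 3 reads, which is a value of 2.29 to 3.95 in the 8 libraries, and this floor covers counting error only.

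The Hoxc cluster held most of the Hox signal in all 3 groups. Shares and summed levels are means ± SD over libraries, with n = 3 for ASCs, n = 2 for FAPs and n = 3 for injured FAPs. Hoxc genes made up 74.5% ± 4.29 of the summed Hox value per kb in ASCs, 68.6% ± 0.204 in FAPs and 72.9% ± 0.837 in injured FAPs. Hoxa genes had 11.9% ± 3.33, 20.9% ± 0.389 and 19.4% ± 0.714 in the same order. The Hoxa share of each ASC library was below that of each FAP and injured FAP library. Hoxb genes had 9.31% ± 1.61, 7.15% ± 0.0918 and 5.46% ± 0.112, and Hoxd genes 4.29% ± 0.836, 3.38% ± 0.276 and 2.23% ± 0.165. For both of these clusters the injured FAPs were lowest, with no overlap with the other groups. The summed value per kb of all Hox genes was 2312 ± 254 in ASCs, 4523 ± 290.4 in FAPs and 2941 ± 140.0 in injured FAPs.

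**Figure D1:**
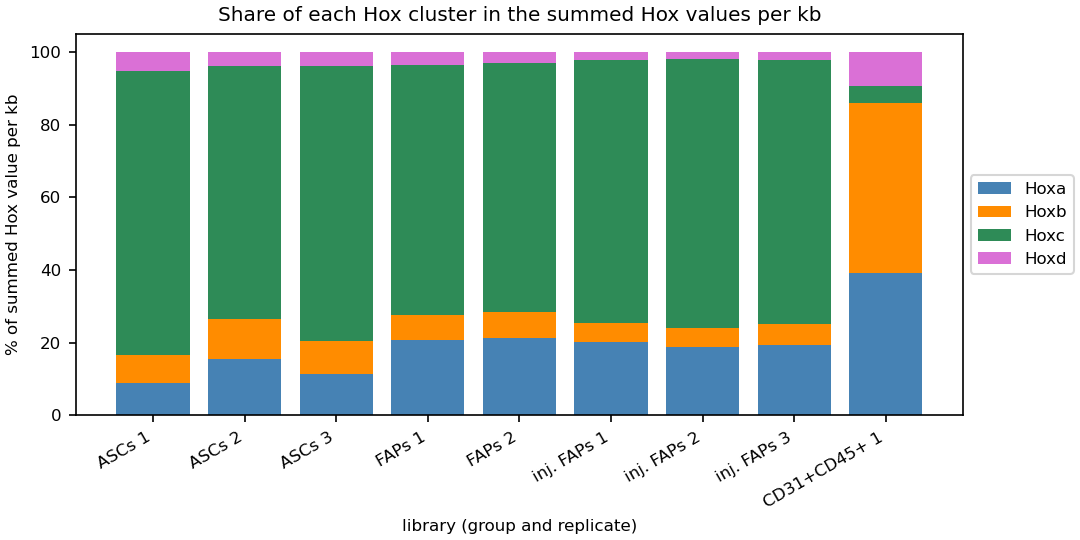
Bars show, for each of the 9 libraries, the percentage of the summed Hox value per kb held by each cluster. Hoxc takes the greater part of the 8 stromal libraries, 74.5% on average in ASCs, and 4.71% of the single CD31+CD45+ library.

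By paralog number, genes 4 to 8 held 54.0% ± 0.473 of the summed value per kb in ASCs, 49.7% ± 0.341 in FAPs and 48.5% ± 0.288 in injured FAPs. Genes 9 to 13 held 39.3% ± 2.40, 41.6% ± 0.957 and 45.0% ± 0.430, and genes 1 to 3 the remainder. Within the share of genes 9 to 13, Hoxc10 alone had 27.1% ± 2.76, 27.7% ± 0.286 and 30.8% ± 0.363 of the summed value per kb. Without Hoxc10 the share of genes 9 to 13 was 16.7% ± 0.259, 19.1% ± 1.64 and 20.5% ± 0.600.

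Levels per kb are again means ± SD over the libraries of a group. The order of the most abundant genes began with Hoxc10, a gene of the lumbar and hindlimb region, in all 3 groups. Per kb, its level was 623 ± 34.9 in the ASC libraries, 1256 ± 93.5 in the FAP libraries and 907 ± 35.1 in the injured ones. Hoxc6 came next at 372 ± 42.0, 947 ± 41.1 and 654 ± 19.8 per kb. In ASCs Hoxc8 lay close to it at 339 ± 21.8 per kb, and Hoxc6 was the higher of the pair in each library. Hoxc4 and Hoxc9 were also close in ASCs, at 141 ± 17.5 and 135 ± 19.7 per kb, with Hoxc4 the higher in each library. In FAPs Hoxc9 (271 ± 11.3), Hoxa6 (254 ± 63.1), Hoxc8 (252 ± 33.9) and Hoxc4 (247 ± 18.7) lay close together per kb. Hoxc8, which patterns the trunk at brachial level, followed Hoxc6 in injured FAPs at 202 ± 8.78 per kb.

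**Figure D2:**
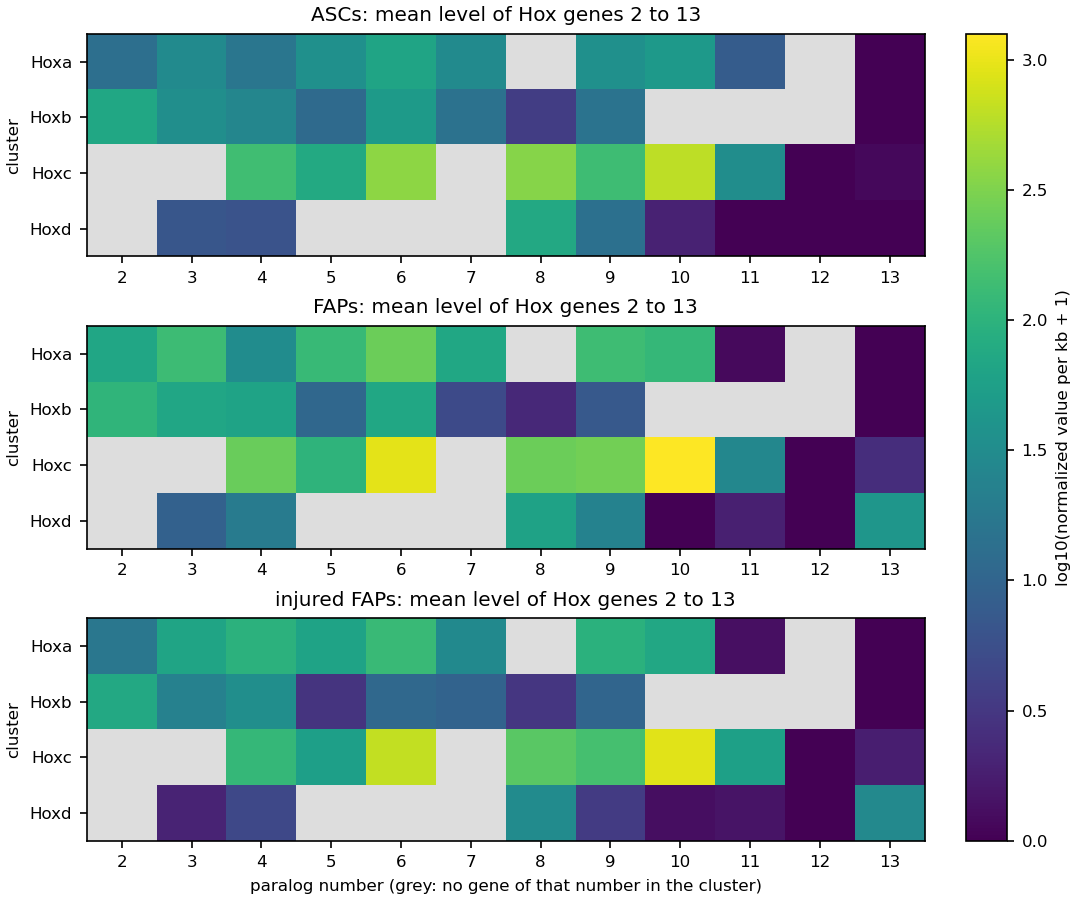
Each panel gives the mean level of the Hox genes with paralog numbers 2 to 13 in 1 group as log10(value per kb + 1), with the cluster in rows and the paralog number in columns. Hoxc10 and Hoxc6 are the brightest fields in all 3 groups, and Hoxd13 is at 0 in ASCs only.

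The comparison of ASCs with FAPs asked how the progenitors of fat and of resting muscle differ. Compared with FAPs, ASCs had lower values of most tested Hox genes: 17 of the 28 were called lower, 1, Hoxb7, was called higher and 10 were not called. Over all 13601 tested genes 23.8% were called lower, 23.4% higher and 47.2% in either direction. The median log2 fold change was −1.03 over the 28 Hox genes, also with Hoxd13 set to its lower bound given below, and 0.0049 over all tested genes. By cluster, 9 of 9 tested Hoxa genes were lower, 2 of 7 Hoxb, 4 of 7 Hoxc and 2 of 5 Hoxd genes. Without ASC replicate 1, 16 Hox genes were called lower and 1 higher. Leaving out single libraries gave 14 to 19 genes called lower, the lowest number without FAP replicate 2. Without ASC replicate 2, Hoxb2 and Hoxb6 were called lower too, at −1.10 (adjusted p = 0.0138, range 0.0138 to 0.354) and −0.71 (adjusted p = 0.0353, range 0.0278 to 0.672), and Hoxb9 higher, at 1.32 (adjusted p = 0.0335, range 0.0335 to 0.444). The 11 Hox genes below the filter have no call.

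Hoxd13, a gene of the distal limb that shapes the digits, separated the groups most widely (ENSMUSG00000001819.4, chr2:74668310-74671599 in mm10). Its value was 0, 0 and 0 in ASCs, 90.3 and 117 in FAPs and 78.5, 46.5 and 80.1 in injured FAPs. No read fell on it in the ASC libraries, while every FAP and injured FAP library held it. FAPs were at least 22.9-fold higher than ASCs and injured FAPs at least 11.8-fold, taking the lowest library of each over the value of 3 reads in the ASC library where that value is highest. The fitted log2 fold change of ASCs against FAPs was −6.70 (SE 0.39, limma adjusted p = 5.03e-07), and that of injured FAPs against ASCs was 6.07 (SE 0.35, limma adjusted p = 2.55e-07). These fitted sizes depend on the pseudocount: with 8 in place of 1 they were −3.79 (adjusted p = 1.1e-06) and 3.22 (adjusted p = 8.51e-07), and with edgeR on the recovered reads −9.77 (adjusted p = 1.29e-05) and 9.21 (adjusted p = 1.11e-05). Adjusted p ranged over the alternatives from 6.48e-12 to 6.57e-05 and from 7.2e-11 to 1.11e-05. Other members of paralog group 13 were at or near 0: Hoxa13 and Hoxb13 had no read in the 9 libraries, and Hoxc13 was at 0, 0 and 1.26 in ASCs, 0.951 and 6.59 in FAPs and 1.57, 1.55 and 3.05 in injured FAPs. For Hoxc13 the 8 reads of FAPs over the 1 of ASCs gave a ratio of 9.23 after scaling for library size. Its 95% exact (Clopper-Pearson) interval was 1.24 to 409, and FAP replicate 2 held 7 of these 8 reads. The 8 reads of injured FAPs over the 1 of ASCs gave a ratio of 5.03 (0.675 to 223). Both intervals cover counting error only.

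Hoxa11, a gene of the middle limb segments, showed the opposite pattern (ENSMUSG00000038210.10, chr6:52242106-52245810). It was at 10.5, 17.0 and 20.1 in ASCs, 0.951 and 0 in FAPs and 1.57, 0.775 and 0 in injured FAPs. The 3 ASC libraries were above all muscle libraries, which held at most 2 reads each. Hoxa11 missed the filter and has no call: 39 reads in ASCs against 1 in FAPs gave a ratio of 33.8 after scaling (95% exact counting interval 5.72 to 1369.6), and against 3 in injured FAPs a ratio of 20.7 (6.57 to 105). Of its exon bases 24.8% are shared with the antisense transcript Hoxa11os, which was at 9.22, 2.27 and 6.28 in ASCs, 1.90 and 8.47 in FAPs and 0, 0.775 and 0 in injured FAPs. Because the strand setting of the counting is not given, the values of overlapping genes of opposite strands may include reads of each other.

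RefSeq promoter windows of 300 bases, from 250 bases before the annotated start to 50 after it, were matched for 22 of the 39 Hox genes (24 windows, build GRCm38.p6). The windows of Hoxd13 and Hoxa11 are shown because these genes were at opposite ends of the contrast between ASCs and FAPs. Both read 5′ to 3′ on the strand of the gene, chr2:74667975-74668274 on the plus strand and chr6:52245761-52246060 on the minus strand, with motif matches in capitals.
Hoxd13: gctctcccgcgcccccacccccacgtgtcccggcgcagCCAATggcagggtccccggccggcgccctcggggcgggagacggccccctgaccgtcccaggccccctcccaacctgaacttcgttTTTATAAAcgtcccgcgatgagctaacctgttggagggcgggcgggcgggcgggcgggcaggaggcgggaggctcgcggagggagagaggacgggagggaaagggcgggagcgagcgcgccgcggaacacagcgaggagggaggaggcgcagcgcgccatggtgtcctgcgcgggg
Hoxa11: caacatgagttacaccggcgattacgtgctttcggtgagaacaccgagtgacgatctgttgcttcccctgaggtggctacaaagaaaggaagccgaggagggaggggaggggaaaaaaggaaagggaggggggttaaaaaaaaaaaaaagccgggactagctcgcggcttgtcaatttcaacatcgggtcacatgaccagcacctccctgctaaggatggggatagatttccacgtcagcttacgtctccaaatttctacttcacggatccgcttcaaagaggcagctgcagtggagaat
The motifs searched on both strands were TGATNNAT, a core bound by Pbx and Hox proteins together, the CCAAT box CCAAT and the TATA box TATAAA. Hoxd13 held 1 CCAAT box and 2 overlapping TATA box matches, 1 on each strand, and Hoxa11 held no match to any of the 3. GC content was 74.3% for Hoxd13 and 51.0% for Hoxa11.
Over all 32851 windows in the table, TGATNNAT was found in 8.85%, CCAAT in 37.4% and TATAAA in 13.6%. Of the 24 Hox windows 4 held TGATNNAT, 15 CCAAT and 4 TATAAA. Median GC content was 57.7% in the Hox windows and 52.7% in all windows, and the median ratio of observed to expected CpG was 0.626 and 0.384. A match is a description of these letters and not a site of binding.

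In the Hoxa cluster all 9 tested genes were lower in ASCs than in FAPs. Hoxa2, which patterns the hindbrain, was at 21.1, 21.5 and 25.1 in ASCs, 87.5 and 153 in FAPs and 31.4, 23.2 and 29.0 in injured FAPs. ASCs and injured FAPs lay together, below both FAP libraries, and ASCs against FAPs gave a log2 fold change of −2.31 (SE 0.31, limma adjusted p = 0.000116). Hoxa3, needed for thymus and parathyroid development, was at 38.2, 99.7 and 91.6 in ASCs, 332 and 347 in FAPs and 193, 164 and 143 in injured FAPs. FAPs were highest, injured FAPs between and ASCs lowest without overlap, with a log2 fold change of −2.25 (SE 0.35, limma adjusted p = 0.000329) for ASCs against FAPs. Hoxa5, a gene of neck, chest and lung development, was at 48.7, 82.7 and 64.0 in ASCs, 236 and 220.1 in FAPs and 133, 105 and 112 in injured FAPs. It had the same order of groups, and its log2 fold change was −1.82 (SE 0.23, limma adjusted p = 9.03e-05).

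Hoxa6, a thoracic gene, was at 30.3, 89.5 and 45.2 in ASCs, 183 and 261 in FAPs and 111, 101 and 113 in injured FAPs. Again the ASC libraries were lowest and the FAP libraries highest, with a log2 fold change of −2.11 (SE 0.37, limma adjusted p = 0.000745). Hoxa9, also known from blood stem cells, was at 72.5, 152 and 110.5 in ASCs, 449.8 and 429 in FAPs and 354, 255 and 314 in injured FAPs. The log2 fold change of ASCs against FAPs was −2.03 (SE 0.27, limma adjusted p = 0.000112), and here too no ASC library overlapped the muscle libraries. Hoxa7, a paralog of the 1 gene called higher, was at 48.7, 92.9 and 79.1 in ASCs, 177 and 165 in FAPs and 76.9, 68.2 and 66.4 in injured FAPs, and its log2 fold change was −1.25 (SE 0.27, limma adjusted p = 0.00227). The exons of Hoxa7 share 23.2% of their bases with the antisense gene Hoxaas3, which had at most 2 reads in each of the 8 libraries.

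Hoxa10, a gene of the thigh and the lumbar spine, was at 98.8, 191 and 132 in ASCs, 393 and 339 in FAPs and 224, 230.2 and 225 in injured FAPs, and both FAP libraries were above all ASC libraries. Hoxa4, whose values are given with the injured FAPs, had a log2 fold change of −1.05 (SE 0.32, limma adjusted p = 0.0161). Its call ended with quantile normalization at −0.51 (adjusted p = 0.19), with only the compared groups in the fit (adjusted p = 0.0664) and without FAP replicate 2 at −0.82 (adjusted p = 0.129), within a range of adjusted p from 0.00212 to 0.19.

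The Hoxb cluster was mixed. Hoxb7 was at 10.5, 22.7 and 20.1 in ASCs, 0.951 and 9.41 in FAPs and 10.2, 10.8 and 12.2 in injured FAPs. The 3 ASC libraries were above both FAP libraries, of which replicate 1 held a single read, and the log2 fold change was 1.99 (SE 0.67, limma adjusted p = 0.0254). Without FAP replicate 1 it was 0.78 (adjusted p = 0.266), without FAP replicate 2 3.20 (adjusted p = 0.00248) and without ASC replicate 2 or 3 1.79 (adjusted p = 0.0642) and 1.87 (adjusted p = 0.0657). A fit of the compared groups alone gave an adjusted p of 0.06. Its adjusted p ranged from 0.00248 to 0.266 over the alternatives, and a pseudocount of 8 gave 1.01 (adjusted p = 0.0244). Hoxb3 was at 59.3, 155 and 137 in ASCs, 203 and 264 in FAPs and 76.9, 76.7 and 79.3 in injured FAPs, with a log2 fold change of −1.09 (SE 0.35, limma adjusted p = 0.0203) that lost its call without FAP replicate 2 at −0.91 (adjusted p = 0.138) and with only the compared groups in the fit (adjusted p = 0.0542), in a range of adjusted p from 0.00668 to 0.138. Hoxb4, a gene known from blood stem cells, was at 46.1, 86.1 and 64.0 in ASCs, 162 and 154 in FAPs and 83.2, 72.8 and 99.2 in injured FAPs, and its log2 fold change was −1.30 (SE 0.27, limma adjusted p = 0.00182). For both genes the ASC libraries were below the FAP libraries.

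Not called in this comparison were 4 Hoxb genes, of which Hoxb5 and Hoxb6 are described with the injured FAPs. Hoxb2, a hindbrain gene, was at 52.7, 169.9 and 118 in ASCs, 164 and 178 in FAPs and 122, 123 and 114 in injured FAPs, and ASC replicate 2 lay between the FAP libraries. Hoxb2 and Hoxb3 share 58.5% and 63.9% of their exon bases with the antisense gene Hoxb3os, which was at 6.59, 14.7 and 6.28 in ASCs, 11.4 and 12.2 in FAPs and 5.49, 4.65 and 3.05 in injured FAPs. Hoxb9, a gene of the rib-bearing trunk, was at 68.5, 17.0 and 25.1 in ASCs, 17.1 and 15.1 in FAPs and 29.0, 20.1 and 21.4 in injured FAPs, where ASC replicate 1 was far above the 2 other ASC libraries. The untested Hoxb8 was at 9.22, 5.66 and 6.28 in ASCs, 5.71 and 0.941 in FAPs and 5.49, 5.42 and 5.34 in injured FAPs, which is low in all 3 groups.

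In the Hoxc cluster 4 genes were lower in ASCs and 3 were not called. Hoxc6 was at 511, 618 and 633 in ASCs, 1452 and 1544 in FAPs and 1070.2, 1018 and 1014 in injured FAPs, with a log2 fold change of −1.35 (SE 0.12, limma adjusted p = 5.98e-06) for ASCs against FAPs. Hoxc9 was at 266, 348 and 346 in ASCs, 662 and 624 in FAPs and 379.8, 375 and 326 in injured FAPs, and its log2 fold change was −1.01 (SE 0.15, limma adjusted p = 0.000236). In both genes ASCs were below FAPs in every library, and Hoxc9 of ASCs overlapped that of injured FAPs. Hoxc4 was at 311, 398 and 375 in ASCs, 599 and 667 in FAPs and 332, 278 and 279.9 in injured FAPs, with a log2 fold change of −0.81 (SE 0.15, limma adjusted p = 0.000915). Hoxc10, singled out after its values were seen because it is the most abundant Hox gene, was at 1149, 1154 and 1267 in ASCs, 2271 and 2523 in FAPs and 1801, 1667 and 1724 in injured FAPs. Its log2 fold change was −1.01 (SE 0.098, limma adjusted p = 1.34e-05), and the groups did not overlap.

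Hoxc8 and Hoxc5 differed less between ASCs and FAPs. Hoxc8 was at 591, 633 and 673 in ASCs, 426 and 516 in FAPs and 396, 371 and 365 in injured FAPs. ASCs were the highest group, above FAPs by a log2 fold change of 0.43 (SE 0.13, limma adjusted p = 0.0133), which is within the limit of 0.58. Hoxc5 was at 207, 208 and 249.8 in ASCs, 287 and 312 in FAPs and 162, 173 and 153 in injured FAPs, and the FAP libraries were highest, with a log2 fold change of −0.44 (SE 0.15, limma adjusted p = 0.0283) that also stayed within that limit. With 75th percentile scaling Hoxc5 and Hoxb6 were called lower as well, Hoxb6 also with edgeR, and with quantile normalization Hoxb9, Hoxc11 and Hoxd8 were called higher.

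Of the Hoxd genes, Hoxd13 and Hoxd4 were lower in ASCs. Hoxd4, a gene of the hindbrain and neck, was at 14.5, 14.7 and 11.3 in ASCs, 47.5 and 47.0 in FAPs and 10.2, 9.30 and 9.15 in injured FAPs. The FAP libraries were above all others, and the log2 fold change of ASCs against FAPs was −1.74 (SE 0.34, limma adjusted p = 0.00133). Hoxd9 was at 18.4, 31.7 and 33.9 in ASCs, 54.2 and 42.3 in FAPs and 7.85, 4.65 and 3.05 in injured FAPs, Hoxd3 at 21.1, 17.0 and 17.6 in ASCs, 25.7 and 27.3 in FAPs and 3.14, 2.32 and 4.58 in injured FAPs and Hoxd8 at 227, 187 and 183 in ASCs, 182 and 151 in FAPs and 80.0, 87.6 and 81.6 in injured FAPs, and none of the 3 passed the test between ASCs and FAPs. Hoxd3 and Hoxd9 of every ASC library were nevertheless below both FAP libraries, and Hoxd8 of every ASC library was above them. Among the untested genes, Hoxd1 was at 1.32, 0 and 0 in ASCs, 0 and 0.941 in FAPs and 0, 0 and 0 in injured FAPs, Hoxd10 at 3.95, 0 and 1.26 in ASCs, 0 and 0 in FAPs and 1.57, 0 and 0 in injured FAPs and Hoxd11 at 0, 0 and 0 in ASCs, 0 and 1.88 in FAPs and 0.785, 0.775 and 0 in injured FAPs. These are 0 to 3 reads in each library, too few for a ratio.

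**Figure D3:**
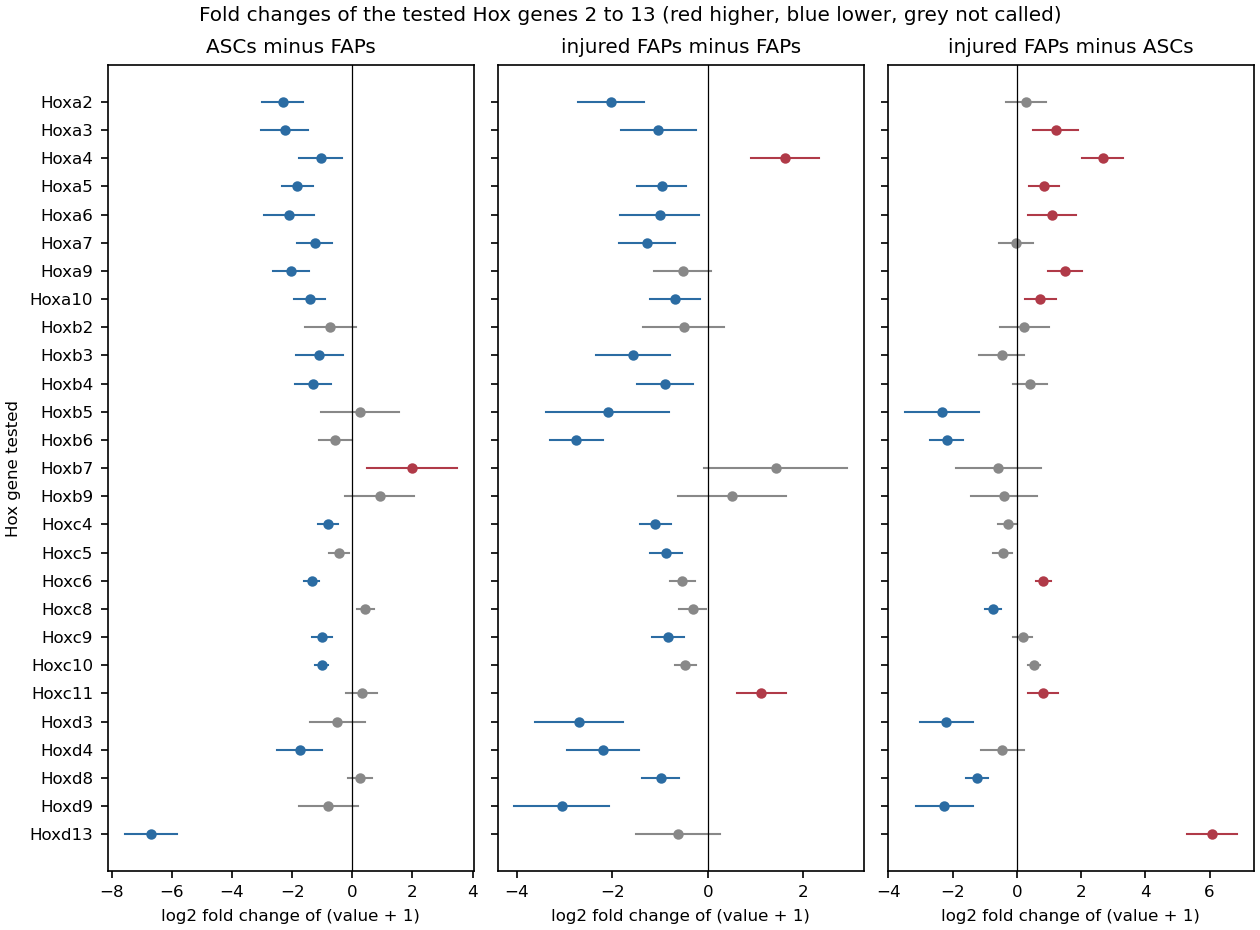
Points give the log2 fold change of the tested Hox genes with paralog numbers 2 to 13 in the 3 comparisons, lines the 95% interval of the limma fit, red a higher, blue a lower call and grey no call. All Hoxa genes shown are on the lower side for ASCs against FAPs, and in the comparison of injured with resting FAPs Hoxa4 and Hoxc11 are the 2 genes called higher.

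The comparison of injured FAPs with FAPs asked what changed in muscle progenitors 1 day after glycerol. It shares the FAP libraries with the comparison above, so the values of both are only set side by side. Hox genes mostly fell: 17 of the 28 tested genes were called lower, 2, Hoxa4 and Hoxc11, were called higher and 9 were not called. Over all tested genes 27.7% were called lower, 24.9% higher and 52.6% in either direction. The median log2 fold change was −0.89 for the Hox genes and −0.051 for all tested genes. By cluster, 6 of 9 Hoxa, 4 of 7 Hoxb, 3 of 7 Hoxc and 4 of 5 Hoxd genes were lower. Leaving out single libraries gave 12 to 17 genes called lower, the lowest number without FAP replicate 2, and 2 or 3 called higher. Hoxb7 was called higher without FAP replicate 2, at 2.63 (adjusted p = 0.00551, range 0.00551 to 0.762), and with quantile normalization. Without ASC replicate 1 the counts were 17 and 2.

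Hoxa4, a gene of the neck and upper trunk, rose most after injury. Its value was 15.8, 35.1 and 22.6 in ASCs, 41.8 and 58.3 in FAPs and 167, 143 and 151 in injured FAPs. The 3 injured FAP libraries were above all FAP and ASC libraries, and the log2 fold change was 1.61 (SE 0.32, limma adjusted p = 0.00134). The other group 4 paralogs went the other way. Hoxb4 had a log2 fold change of −0.90 (SE 0.27, limma adjusted p = 0.013), Hoxc4 of −1.09 (SE 0.15, limma adjusted p = 0.000108) and Hoxd4 of −2.20 (SE 0.34, limma adjusted p = 0.000253). For these 3 genes every injured FAP library was below both FAP libraries. The Hoxb4 call ended without FAP replicate 1 at −0.86 (adjusted p = 0.068) or without FAP replicate 2 at −0.93 (adjusted p = 0.0554), in a range of adjusted p from 0.00123 to 0.068. Hoxa4 and Hoxa3 overlap by gene span on the same strand without shared exon bases.

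Hoxc11, a hindlimb gene, was the other gene that rose. It was at 67.2, 64.6 and 64.0 in ASCs, 43.7 and 62.1 in FAPs and 123, 94.5 and 129.7 in injured FAPs. Injured FAPs were the highest group and ASCs and FAPs lay near each other, with a log2 fold change of 1.12 (SE 0.23, limma adjusted p = 0.00169) for injured FAPs against FAPs. Its neighbour Hoxc10, described above, had a log2 fold change of −0.47 (SE 0.098, limma adjusted p = 0.00184), short of the limit of 0.58, and it was called lower with quantile normalization only.

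**Figure D4:**
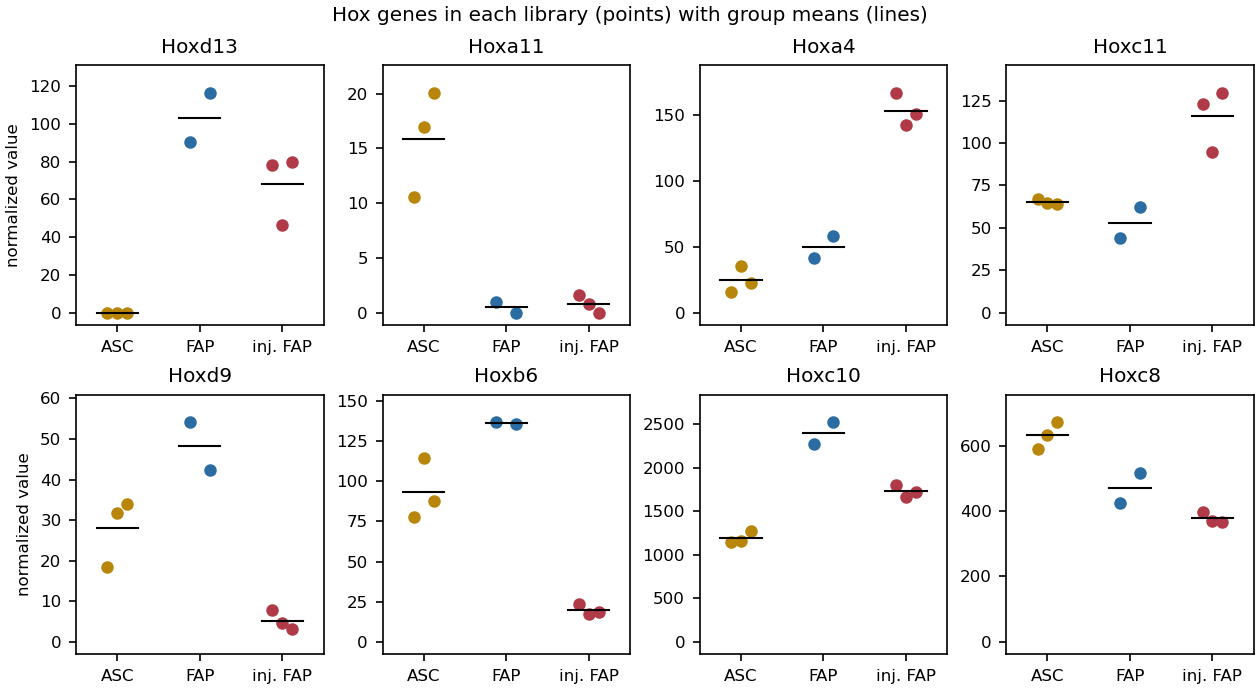
Normalized values of 8 Hox genes in each library (points) with the group mean (line), each panel with its own axis from 0. Hoxd13 is at 0 in the 3 ASC libraries, Hoxa11 is above 10 there alone, Hoxa4 and Hoxc11 are highest in injured FAPs, and Hoxd9 and Hoxb6 are lowest in them.

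The deepest falls after injury were in the Hoxd and Hoxb clusters. Hoxd9 went from 54.2 and 42.3 in FAPs to 7.85, 4.65 and 3.05 in injured FAPs, a log2 fold change of −3.06 (SE 0.44, limma adjusted p = 0.000169). Hoxd3 went from 25.7 and 27.3 to 3.14, 2.32 and 4.58, a log2 fold change of −2.69 (SE 0.42, limma adjusted p = 0.000254). For both genes the injured FAPs also lay below all ASC libraries. With a pseudocount of 8 these fold changes shrank to −2.10 (adjusted p = 9.28e-05) and −1.61 (adjusted p = 0.000175), in ranges of adjusted p from 4.15e-08 to 0.00339 and 9.89e-06 to 0.0039. Hoxd4 went from 47.5 and 47.0 to 10.2, 9.30 and 9.15. Hoxd8 went from 182 and 151 to 80.0, 87.6 and 81.6, a log2 fold change of −0.99 (SE 0.18, limma adjusted p = 0.000676). Hoxd13, at the other end of the cluster, was not called, with a log2 fold change of −0.62 (SE 0.39, limma adjusted p = 0.186), although its 3 injured FAP libraries were below both FAP libraries.

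The promoter windows of Hoxd9 and Hoxd3 are shown because these genes had the deepest falls of their cluster after injury. Hoxd8, which lies between them, fell less. The windows are chr2:74697513-74697812 and chr2:74711743-74712042, both on the plus strand and 5′ to 3′, again with matches to the 3 motifs in capitals.
Hoxd9: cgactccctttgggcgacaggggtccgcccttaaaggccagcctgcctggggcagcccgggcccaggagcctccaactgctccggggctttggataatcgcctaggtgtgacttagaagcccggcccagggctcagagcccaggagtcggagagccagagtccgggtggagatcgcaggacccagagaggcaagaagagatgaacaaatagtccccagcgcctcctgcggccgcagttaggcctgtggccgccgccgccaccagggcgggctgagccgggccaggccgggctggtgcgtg
Hoxd3: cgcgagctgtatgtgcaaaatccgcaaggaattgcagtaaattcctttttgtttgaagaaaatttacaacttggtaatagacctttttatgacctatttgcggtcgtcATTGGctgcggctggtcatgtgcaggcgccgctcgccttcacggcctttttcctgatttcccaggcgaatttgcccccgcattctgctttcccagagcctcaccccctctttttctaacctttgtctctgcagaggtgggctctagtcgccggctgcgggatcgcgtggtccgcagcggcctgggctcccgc
Hoxd9 held none of the 3 motifs, and Hoxd3 held 1 CCAAT box, read on the opposite strand. GC content was 68.3% for Hoxd9 and 54.0% for Hoxd3.

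In the Hoxb cluster, Hoxb6 went from 137 and 135 in FAPs to 23.5, 17.0 and 18.3 in injured FAPs. The injured libraries were below all others, ASCs at 77.7, 114 and 87.9 included, and the log2 fold change was −2.75 (SE 0.25, limma adjusted p = 7.88e-06). Hoxb5 was at 25.0, 15.9 and 21.3 in ASCs, 10.5 and 27.3 in FAPs and 6.28, 1.55 and 3.05 in injured FAPs, with a log2 fold change of −2.09 (SE 0.58, limma adjusted p = 0.00898). The call of Hoxb5 ended without FAP replicate 2 at −1.44 (adjusted p = 0.11), while without FAP replicate 1 the fold change was −2.75 (adjusted p = 0.00808) and with a pseudocount of 8 −1.16 (adjusted p = 0.0106), in a range of adjusted p from 0.0036 to 0.11. Hoxb3 fell too, by a log2 fold change of −1.57 (SE 0.35, limma adjusted p = 0.00274). Hoxb2, Hoxb7 and Hoxb9 were not called.

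Endothelial markers were read beside these genes, because Hoxb6 was at 1508 in the CD31+CD45+ library. The sum of 12 endothelial markers was 6636, 5265 and 7013 in ASCs, 7219 and 4808 in FAPs and 2075, 2259.9 and 1769 in injured FAPs, led by Tek in ASCs and FAPs and by Cdh5 in injured FAPs. Relative to the CD31+CD45+ library this sum was 1.85% and 1.24% in FAPs and 0.533%, 0.581% and 0.454% in injured FAPs. The CD31+CD45+ library also had the highest sum of the pericyte and smooth muscle markers, 82176, and relative to it that sum was 28.6% and 25.0% in FAPs and 12.4%, 11.9% and 12.6% in injured FAPs. On the same scale Hoxb6 was 9.08% and 8.98% in FAPs and 1.56%, 1.13% and 1.21% in injured FAPs. Hoxd9 was 31.4% and 24.5%, then 4.54%, 2.69% and 1.77%. Members of the endothelial list differed: Vwf, Cldn5 and Emcn were at 0 in both FAP libraries, while Cdh5, Kdr, Flt1, Tie1 and Egfl7 had their 2 highest values of the 8 libraries in FAPs. The part of endothelial cells or pericytes in the fall of these genes was not tested.

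In the Hoxa cluster, Hoxa2 had a log2 fold change of −2.03 (SE 0.31, limma adjusted p = 0.000229) after injury, and its injured FAP libraries overlapped the ASC libraries. Hoxa7 followed with −1.27 (SE 0.27, limma adjusted p = 0.00184) and fell below both FAP libraries in all 3 injured libraries. For Hoxa5 the log2 fold change was −0.97 (SE 0.23, limma adjusted p = 0.00431). Hoxa3 had −1.03 (SE 0.35, limma adjusted p = 0.024) and Hoxa6 −1.01 (SE 0.37, limma adjusted p = 0.0353), and Hoxa10 was also called lower. The calls of these last 3 genes depended on single libraries. Without FAP replicate 1 the fold changes were −1.07 (adjusted p = 0.0842) for Hoxa3, −1.26 (adjusted p = 0.0516) for Hoxa6 and −0.58 (adjusted p = 0.148) for Hoxa10. Without FAP replicate 2 they were −1.003 (adjusted p = 0.105), −0.75 (adjusted p = 0.22) and −0.79 (adjusted p = 0.0619). Without injured FAP replicate 2 they were −1.03 (adjusted p = 0.0542), −0.96 (adjusted p = 0.0835) and −0.70 (adjusted p = 0.0564), and without injured FAP replicate 3 −0.93 (adjusted p = 0.0772), −1.04 (adjusted p = 0.0709) and −0.68 (adjusted p = 0.0647). The calls of Hoxa6 and Hoxa10 also ended without injured FAP replicate 1, at −1.03 (adjusted p = 0.0705) and −0.68 (adjusted p = 0.0628), and that of Hoxa6 with no filter (adjusted p = 0.0572). The ranges of adjusted p over all alternatives were 0.00016 to 0.105, 0.000614 to 0.22 and 0.000414 to 0.148. Hoxa9 was not called, with every injured FAP library below both FAP libraries, and it was called lower with quantile normalization only.

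In the Hoxc cluster Hoxc4, Hoxc5 and Hoxc9 fell. Hoxc5 had a log2 fold change of −0.88 (SE 0.15, limma adjusted p = 0.000515) and Hoxc9 of −0.84 (SE 0.15, limma adjusted p = 0.000701). Hoxc6 and Hoxc8 were lower in all 3 injured libraries than in both FAP libraries, but their log2 fold changes of −0.53 (SE 0.12, limma adjusted p = 0.00234) and −0.31 (SE 0.13, limma adjusted p = 0.0496) stayed within the limit of 0.58. Hoxc6 passed it with 75th percentile scaling and with quantile normalization.

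The comparison of injured FAPs with ASCs asked how far muscle progenitors after damage resemble those of fat. It shares its injured FAP and ASC libraries with the comparisons above. Here the Hox genes were split: 9 of the 28 tested genes were higher in injured FAPs, 6 were lower and 13 were not called. Over all tested genes 25.0% were called higher, 25.8% lower and 50.8% in either direction. The median log2 fold change was 0.20 for the Hox genes, the same with Hoxd13 at its lower bound, and 0.021 for all tested genes. Higher were 6 of 9 Hoxa, 2 of 7 Hoxc and 1 of 5 Hoxd genes, and lower were 2 of 7 Hoxb, 1 of 7 Hoxc and 3 of 5 Hoxd genes. Without ASC replicate 1, 8 genes were higher and 7 lower, with Hoxb3 added at −0.90 (adjusted p = 0.000689, range 0.000689 to 0.562). Without ASC replicate 2, Hoxb4 was also called higher, at 0.63 (adjusted p = 0.0293, range 0.0293 to 0.439), and without ASC replicate 3 Hoxc10, at 0.59 (adjusted p = 0.000627, range 1.41e-07 to 0.00278). Hoxc10 was also called higher with edgeR, 75th percentile scaling and quantile normalization, and Hoxc5 lower with quantile normalization.

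Apart from Hoxd13, the genes with the largest excess in injured FAPs were all of the Hoxa cluster. The log2 fold change was 2.67 (SE 0.29, limma adjusted p = 1.74e-05) for Hoxa4 and 1.51 (SE 0.24, limma adjusted p = 0.000284) for Hoxa9. For Hoxa3 it was 1.22 (SE 0.31, limma adjusted p = 0.00592), for Hoxa6 1.10 (SE 0.33, limma adjusted p = 0.014) and for Hoxa5 0.86 (SE 0.21, limma adjusted p = 0.00428). For Hoxa3, Hoxa5, Hoxa6 and Hoxa9 the means of injured FAPs lay between those of ASCs and FAPs. Hoxc6, with 0.82 (SE 0.10, limma adjusted p = 5.71e-05), and Hoxc11, with 0.81 (SE 0.21, limma adjusted p = 0.00589), were also called higher. Hoxa10 was called higher too, and its call ended without ASC replicate 1 at 0.51 (adjusted p = 0.0175) and with quantile normalization at 0.49 (adjusted p = 0.0379), in a range of adjusted p from 0.000467 to 0.0379.

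Lower in injured FAPs than in ASCs were Hoxb5, Hoxb6, Hoxc8, Hoxd3, Hoxd8 and Hoxd9. The log2 fold changes were −2.34 (SE 0.52, limma adjusted p = 0.00238) for Hoxb5 and −2.19 (SE 0.23, limma adjusted p = 1.28e-05) for Hoxb6. In the Hoxd cluster they were −2.26 (SE 0.40, limma adjusted p = 0.000544) for Hoxd9, −2.20 (SE 0.37, limma adjusted p = 0.000421) for Hoxd3 and −1.24 (SE 0.16, limma adjusted p = 5.67e-05) for Hoxd8. The log2 fold change of Hoxc8 was −0.74 (SE 0.11, limma adjusted p = 0.000202). The sizes for the 3 least abundant depended on the pseudocount: with 8 in place of 1 they were −1.31 (adjusted p = 0.00263) for Hoxb5, −1.44 (adjusted p = 0.000535) for Hoxd9 and −1.23 (adjusted p = 0.000469) for Hoxd3. Quantile normalization gave −2.98 (adjusted p = 0.00084) for Hoxb5 and −2.84 (adjusted p = 0.000154) for Hoxd3. The ranges of adjusted p were 0.000738 to 0.00983, 1.41e-05 to 0.00336 and 0.000138 to 0.00215 for Hoxb5, Hoxd9 and Hoxd3.

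Paralogs of 1 group lay at different levels in the same libraries. In group 9, the means of injured FAPs per kb were 95.4 for Hoxa9, 152 for Hoxc9, 2.43 for Hoxd9 and 9.13 for Hoxb9. In group 6, Hoxc6 was at 654 per kb in injured FAPs, Hoxa6 at 124 and Hoxb6 at 9.995. In FAPs the same 3 genes were at 947, 254 and 69.3 per kb, and in ASCs at 372, 62.9 and 47.5.

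All 9 TALE cofactor genes were tested. Between ASCs and FAPs 4 were higher and 1 was lower, together 55.6% against 47.2% of all tested genes, and the median log2 fold change was 0.57. Meis2 was at 790.4, 1005 and 1034 in ASCs, 491 and 392 in FAPs and 487, 505 and 463 in injured FAPs, with a log2 fold change of 1.09 (SE 0.15, limma adjusted p = 0.000133), and Pbx2, with values of 227, 399.8 and 338 in ASCs, 670.4 and 713 in FAPs and 464, 432 and 424 in injured FAPs, had −1.14 (SE 0.20, limma adjusted p = 0.000775). The call of Pbx4 as higher, with 1.01 (SE 0.37, limma adjusted p = 0.0373), ended in 10 of 17 alternatives, among them the replicate block, DESeq2 and either FAP library left out, in a range of adjusted p from 0.00635 to 0.13. After injury 1 rose, Pbx3 with 1.18 (SE 0.16, limma adjusted p = 0.000108), and 2 fell, Meis3 with −1.20 (SE 0.12, limma adjusted p = 1.23e-05) and Pbx2 with −0.65 (SE 0.20, limma adjusted p = 0.0164), at a median of 0.12. Together these were 33.3% against 52.6% of all tested genes. The call of Pbx2 after injury ended without FAP replicate 1 at −0.70 (adjusted p = 0.0571) or 2 at −0.61 (adjusted p = 0.0927), in a range of adjusted p from 0.000125 to 0.0927. Injured FAPs against ASCs had 1 gene higher and 6 lower, 77.8% against 50.8%, at a median of −0.88, with Meis1 at −0.92 (SE 0.19, limma adjusted p = 0.00179). Of the 6, the call of Pbx4 ended when ASC replicate 1 or injured FAP replicate 1 or 3 was left out, in a range of adjusted p from 0.0117 to 0.0662. That of Pknox1 ended without ASC replicate 1, with edgeR and with both other scalings, where its log2 fold change fell within the limit of 0.58.

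Of 31 listed regulators of the clusters, which are Polycomb and Trithorax subunits, histone demethylases, Ctcf, Cdx genes and Gmnn, 28 were tested. ASCs against FAPs gave 5 higher and 9 lower at a median log2 fold change of −0.28, injured FAPs against FAPs 7 and 7 at −0.14, and injured FAPs against ASCs 8 and 7 at 0.23. The called shares were 50%, 50% and 53.6%, near those of all tested genes at 47.2%, 52.6% and 50.8%. Calls that at least 1 alternative ended were those of Cbx2, Cbx8, Ctcf, Kmt2b and Gmnn between ASCs and FAPs, of Bmi1 and Pcgf2 after injury and of Ctcf between injured FAPs and ASCs. Kdm6b, which removes the Polycomb mark from histone H3, was at 43651, 32327 and 38167 in ASCs, 4713 and 6611 in FAPs and 8122, 6411 and 5958 in injured FAPs. All ASC libraries were above all muscle libraries, and the log2 fold change against FAPs was 2.76 (SE 0.19, limma adjusted p = 1.23e-06), or 1.93 (adjusted p = 3.06e-06) with quantile normalization, in a range of adjusted p from 3.38e-42 to 4.47e-05. The catalytic Polycomb subunits parted after injury. Ezh2, at 391, 266 and 247 in ASCs, 110.3 and 159.9 in FAPs and 839.5, 839 and 924 in injured FAPs, rose by a log2 fold change of 2.70 (SE 0.21, limma adjusted p = 3.16e-06). Ezh1, at 565, 945 and 808 in ASCs, 1947 and 1745 in FAPs and 439, 456 and 418 in injured FAPs, had −2.07 (SE 0.18, limma adjusted p = 6.39e-06). Cbx7, a Polycomb subunit that reads the mark, was at 495, 399.8 and 433 in ASCs, 1059 and 937 in FAPs and 99.6, 107 and 101 in injured FAPs and had −3.27 (SE 0.14, limma adjusted p = 1.99e-07). Gmnn, the replication licensing inhibitor geminin, was at 7.90, 9.06 and 3.77 in ASCs, 0 and 2.82 in FAPs and 209, 217 and 225 in injured FAPs, so its FAP libraries held 0 and 3 reads and injured FAPs were far above all others. Cdx2 and Cdx4 were at 0 in all 9 libraries and Cdx1 had at most 4 reads in any.

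Of 22 listed non-coding genes of the clusters 18 were in the table and 2 were tested, Hotairm1 and Mira, both of the Hoxa cluster, where Mira lies between Hoxa6 and Hoxa7. Hotairm1 was at 27.7, 27.2 and 23.9 in ASCs, 44.7 and 46.1 in FAPs and 25.1, 27.1 and 23.6 in injured FAPs, and Mira at 43.5, 46.4 and 75.3 in ASCs, 122 and 193 in FAPs and 88.7, 82.9 and 60.3 in injured FAPs. Both FAP libraries were above all others for both genes. The log2 fold change of ASCs against FAPs was −1.50 (SE 0.31, limma adjusted p = 0.00185) for Mira and −0.77 (SE 0.27, limma adjusted p = 0.029) for Hotairm1, and after injury −0.998 (SE 0.31, limma adjusted p = 0.0155) and −0.82 (SE 0.27, limma adjusted p = 0.0201). Neither was called between injured FAPs and ASCs. The call of Hotairm1 against ASCs ended without ASC replicate 3 at −0.71 (adjusted p = 0.0596) or FAP replicate 1 at −0.79 (adjusted p = 0.0916) or 2 at −0.75 (adjusted p = 0.111). It also ended with quantile normalization at −0.22 (adjusted p = 0.522), with the replicate block at −0.72 (adjusted p = 0.0866), with DESeq2 at −0.78 (adjusted p = 0.0659), and with no filter or only the compared groups, at adjusted p of 0.0515 and 0.0698. After injury it ended with quantile normalization at −0.33 (adjusted p = 0.316), with the replicate block at −0.77 (adjusted p = 0.0649), without FAP replicate 1 at −0.84 (adjusted p = 0.0697) or 2 at −0.80 (adjusted p = 0.0855), and without injured FAP replicate 1 at −0.82 (adjusted p = 0.0539) or 3 at −0.78 (adjusted p = 0.0583). For Mira it ended without FAP replicate 2 at −0.67 (adjusted p = 0.164) or injured FAP replicate 3 at −0.83 (adjusted p = 0.06). The ranges of adjusted p over the alternatives were 0.0107 to 0.522 and 0.0115 to 0.316 for Hotairm1 and 0.00451 to 0.164 for Mira after injury. Hotair, in the Hoxc cluster, was at 0, 2.27 and 3.77 in ASCs, 10.5 and 19.8 in FAPs and 8.63, 2.32 and 4.58 in injured FAPs and Hottip, at the end of the Hoxa cluster, at 0 in all 9 libraries.

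Protein-coding genes beside the clusters gave values outside them, where the nearest on each side was taken apart from the Evx homeobox genes and genes with a provisional Gm symbol. Evx1, 52.6 kb from the Hoxa cluster, was at 0 in all 9 libraries. Evx2, 8.75 kb from Hoxd13, was at 0, 0 and 0 in ASCs, 147 and 181 in FAPs and 40.0, 27.9 and 46.5 in injured FAPs, so that, like Hoxd13, it had no read in ASCs. Beside Hoxa, at distances of 143 and 285 kb, Skap2 was at 298, 383 and 291 in ASCs, 132 and 151 in FAPs and 263, 276 and 285 in injured FAPs and Hibadh at 1161, 1249 and 1139 in ASCs, 967 and 913 in FAPs and 1456, 1411 and 1505 in injured FAPs. Skap2 was higher in ASCs than in FAPs by a log2 fold change of 1.18 (SE 0.16, limma adjusted p = 0.000126), while all 9 Hoxa genes were lower. Beside Hoxc, Smug1 was at 44.8, 79.3 and 75.3 in ASCs, 192 and 199 in FAPs and 142, 145 and 136 in injured FAPs and Calcoco1 at 797, 821 and 866 in ASCs, 1418 and 1352 in FAPs and 345, 433 and 371 in injured FAPs, with log2 fold changes of −1.59 (SE 0.24, limma adjusted p = 0.000292) and −0.74 (SE 0.12, limma adjusted p = 0.000424) for ASCs against FAPs. After injury Calcoco1 had −1.86 (SE 0.12, limma adjusted p = 9.99e-07). Beside Hoxd, Lnpk was at 424, 469 and 536 in ASCs, 612 and 683 in FAPs and 809, 787 and 876 in injured FAPs and Mtx2 at 227, 273 and 241 in ASCs, 343 and 330.2 in FAPs and 530.4, 518 and 600.3 in injured FAPs. Mtx2 rose after injury by a log2 fold change of 0.70 (SE 0.13, limma adjusted p = 0.001), while 4 of 5 Hoxd genes were lower. Beside Hoxb, Ttll6 had no read and Skap1 at most 3 reads in each of the 8 libraries.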

How the data were processed

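The authors deposited normalized counts of 9 RNA-seq libraries, a signal per gene that came out as whole reads over 1 size factor per library in 100% of values of all 9 libraries (tolerance 0.01). The deposited table gives signal values per gene, and per the study's methods reads were aligned to mm10 with HISAT2 and counted with featureCounts, with a strand setting that is not given. Treatment of reads that match several paralogs is not stated either, and 7 Hox genes share exon bases with an antisense gene, 4 of them over 20% with 1 gene.

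The 8 ASC, FAP and injured FAP libraries were fitted as 3 group means with limma 3.58.1 in R 4.3.3 (trend, log2(value + 1), 13601 genes with a mean of at least 10, Benjamini-Hochberg). Called means adjusted p under 0.05 and log2 fold change beyond 0.58. Libraries held 24052508 to 27481573 reads, and 13091077 in the CD31+CD45+ library. Alternatives were other pseudocounts, filters and scalings, fits of the compared groups alone, a replicate block, single libraries left out, and edgeR 4.0.16 and DESeq2 1.42.0 on the recovered reads. Over all genes limma called 6416 between ASCs and FAPs, 7153 after injury and 6909 between injured FAPs and ASCs, where edgeR called 6450, 7303 and 7000, and DESeq2 6412, 7227 and 6865. The labels do not say whether replicate numbers mark a shared animal or day.

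Fold changes and tests are printed, per comparison, for up to 6 called Hox genes with the largest rise and up to 6 with the largest fall and for their paralogs, and values may be given for every Hox gene. Fold changes of Hoxa10 and Hoxc10 and of genes whose call an alternative changed were added after the values were seen. Of each list of related genes up to 4 called members are described, and others are named where an alternative ended their call. The Hox genes and all lists were chosen with earlier results of these data known. Exon lengths and positions are those of GENCODE vM21, and promoters those of RefSeq (GRCm38.p6).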

Additional observations from a re-analysis of the deposited data

Results flagged for a closer look

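The CD31+CD45+ library, which entered no comparison, was above each of the 8 other libraries for 20 of 39 Hox genes, and this signal in data outside the comparisons is why it is given. By cluster these were 7 of 11 Hoxa, 8 of 10 Hoxb and 5 of 9 Hoxd genes, and no Hoxc gene. Among all 13601 tested genes 3843 (28.3%) were above the 8 others in this library. This share covers only genes that passed the filter on the 8 others, while the 20 Hox genes include the untested Hoxb8 and Hoxd10. The Hox count and this share are therefore not on like sets of genes. It is a single library, so the difference was not tested.

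Hoxb6 had the highest Hox value there, 1508, against at most 137 in the 8 others. Hoxb5 was at 647 against at most 27.3, and Hoxb8 at 598 against at most 9.22. Hoxc10 was at 148, below all 8 others. Hoxb genes made up 46.8% of its summed Hox value per kb, Hoxa genes 39.1%, Hoxd genes 9.40% and Hoxc genes 4.71%, and the sum was 6010.1.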

How the results depend on the processing

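No call of a Hox gene reversed its direction under any alternative. Of the genes called lower, 14 of 17 (ASCs against FAPs), 12 of 17 (injured FAPs against FAPs) and 6 of 6 (injured FAPs against ASCs) had the same call in each of the 18 alternatives that tested the gene. Of those called higher it was 0 of 1 (Hoxb7), 2 of 2 and 8 of 9 in the same order.

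For ASCs against FAPs the number called higher, 1, was 2 with no filter (34 Hox genes tested), and fell to 0 at a minimum mean of 50, where 20 were tested, and with only the compared groups. It was 4 with quantile normalization, and the cause was not tested. For injured FAPs against ASCs the number lower, 6, was 3 at a minimum mean of 50. Single libraries left out gave 0 to 1 higher and 14 to 19 lower for ASCs against FAPs, 2 to 3 and 12 to 17 for injured FAPs against FAPs, and 8 to 11 and 6 to 7 for injured FAPs against ASCs. Where a FAP library was left out, the 1 that remained was assumed to vary like the other groups. The replicate block gave 1 higher and 16 lower, 2 and 17, and 9 and 6. Between groups, deviations from the group mean correlated across genes at −0.054 to 0.045 for libraries with the same replicate number. ASC replicate 3 reached −0.123 with FAP replicate 1 and 0.123 with FAP replicate 2. Deviations within a group of 2 or 3 libraries sum to 0, so these correlations cannot decide whether libraries were paired.

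Without Hoxc10 the Hoxc share was 65.2% in ASCs, 56.5% in FAPs and 60.8% in injured FAPs, and that of genes 9 to 13 16.7%, 19.1% and 20.5%. Without division by length the Hoxc share was 65.8% in FAPs and 70.3% in injured FAPs, and that of genes 9 to 13 44.7% and 49.0%. Genes 4 to 8 then had 45.1% and 43.7%, so in injured FAPs their share fell below that of genes 9 to 13, the reverse of the order per kb.

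Scaling to a common 75th percentile moved the log2 fold changes of all genes by a median of −0.21 for ASCs against FAPs and 0.11 for injured FAPs against ASCs, and those of the Hox genes by −0.21 and 0.11. The split of calls over all genes for ASCs against FAPs then was 2452 higher and 4142 lower. Quantile normalization moved the log2 fold changes of the Hox genes by a median of 0.34, 0.07 and −0.17 in the 3 comparisons. There were 2 FAP libraries, and several Hoxb and Hoxd genes had under 10 reads in some libraries. The smallest change that this depth can detect was not worked out.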

Other observations

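Markers of satellite cells, muscle fibres and adipocytes were read in the same libraries. The sum of 6 satellite cell markers was 349, 311 and 489.6 in ASCs, 786 and 879.6 in FAPs and 417, 474 and 371 in injured FAPs, most of it Des, while Pax7 was at 0 in all 3 ASC libraries. The sum of 7 muscle fibre markers was 151, 116 and 154 in ASCs, 745 and 905 in FAPs and 279, 281 and 225 in injured FAPs, led by Tnnt3 or Acta1. The sum of 5 adipocyte markers was 130.4, 104 and 114 in ASCs, 15.2 and 22.6 in FAPs and 7.06, 6.97 and 2.29 in injured FAPs, led by Plin1 or Adipoq in ASCs.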
